A study of Mus musculus with 12 samples.

Results

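The 39 genes described here encode proteins that copy DNA or that commit a cell to copying it, the DNA replication and G1/S genes. They were given as a list of symbols, drawn up with earlier results of these data known. Each matched 1 of the 37583 Ensembl gene identifiers in the count tables. All 39 passed the low-count filter, which left 16240 genes for testing. RNA-seq counts were made for 12 libraries of mouse cells of mixed 129SV/Jae/C57BL6J strain, 2 libraries in each of 6 groups. Mouse embryonic fibroblasts (MEF) were grown in MEF medium. The 4 reprogramming populations were sorted on day 3 or day 6 from cells in embryonic stem (ES) cell medium with doxycycline and AA, as the labels abbreviate it. The d3 Eff gate was SSEA1+CD73+Sca1- and the d3 Ineff gate SSEA1+CD73-Sca1+. On day 6 the d6 Eff gate was SSEA1+EpCAM+Sca1- and the d6 Ineff gate SSEA1+EpCAM-Sca1+. SSEA1, CD73, EpCAM and Sca1 are surface antigens, and the labels shorten the names of the populations to Eff and Ineff. Induced pluripotent stem cells (iPSC) were grown in ES medium without the 2 additives being named. Cells of all groups were trypsinised, stained and sorted by flow cytometry. The labels do not say which inducible factors the cells carried, whether MEF and iPSC passed a gate, what "3/4" in their titles stands for, or whether replicates were separate cultures or animals. P-values therefore measure the spread between these libraries, which may be technical.

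Replication begins when the origin recognition complex, CDC6 and CDT1 load the MCM2-7 helicase onto DNA in G1. Cyclin E with its kinase, together with other factors, then turns the loaded helicase into an active fork with CDC45 and GINS, behind which the polymerases, the PCNA clamp and its loader synthesise the new strands. Many of these genes are transcribed at the G1/S boundary under E2F factors, which the retinoblastoma family of pocket proteins restrains. Pluripotent mouse cells are known for a short G1 phase and fast division, and fibroblasts for slower cycles.

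The promoters are shown first because the members of the list moved together between groups, and E2F binding letters are the textbook feature of G1/S promoters. RefSeq promoter windows of build GRCm38.p6, from 250 bases before to 50 bases after the start, were matched to 31 of the 39 genes and were without an entry for Ccne2, Gins1, Gins2, Mcm4, Pole, Prim2, Rfc2 and Tipin. The deposited counts were made on an older build, mm9, so these coordinates belong to the windows only. The E2F letters searched on both strands were TTTCCCGC, TTTGGCGC, TTTCGCGC and TTTGCCGC, of which neighbouring matches can overlap. They occurred in 13 of the 31 genes (41.9%), in 4.5% of 11371 tested genes with a window and in 2.6% of all 27025 genes with one. Among 30 mitosis and G2/M genes, 25 had a window and 1 of these (4.0%) held a match. The CCAAT letters were in 20 of the 31 genes (64.5%), in 76.0% of the mitosis genes, in 42.8% of the tested genes and in 41.1% of all. The letters TTTGAA, the core of the cell cycle homology region (CHR) of late cell cycle genes, were in 5 of the 31 (16.1%), against 68.0% of the mitosis genes, 14.1% of the tested genes and 20.2% of all. Of the 19 E2F matches in the members' windows, 12 lay before the start. A match is a description of the window and does not show that a factor bound there. The 200 bases before the start follow for 5 genes with a match there and large differences between groups, and for Rrm1, without a match, whose levels departed from the rest. Mcm2, Mcm10, Pcna, Cdc45 and Slbp were also among the 18 members without a match. Rfc3 and Gins3, whose highest means were not in iPSC, held one. Capitals mark the E2F letters, or their complement where these lie on the other strand, and each sequence reads 5′ to 3′ towards the gene. The positions are chr11:98907951-98908150 on the forward strand for Cdc6, chr19:38930790-38930989 on the forward strand for Hells, chr8:75109309-75109508 on the forward strand for Mcm5, chr1:128359706-128359905 on the reverse strand for Mcm6, chr4:108579254-108579453 on the forward strand for Orc1 and chr7:102441495-102441694 on the forward strand for Rrm1.
Cdc6: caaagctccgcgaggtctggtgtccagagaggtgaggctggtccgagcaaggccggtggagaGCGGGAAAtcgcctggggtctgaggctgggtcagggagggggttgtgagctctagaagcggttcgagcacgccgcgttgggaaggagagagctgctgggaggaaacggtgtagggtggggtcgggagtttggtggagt
Hells: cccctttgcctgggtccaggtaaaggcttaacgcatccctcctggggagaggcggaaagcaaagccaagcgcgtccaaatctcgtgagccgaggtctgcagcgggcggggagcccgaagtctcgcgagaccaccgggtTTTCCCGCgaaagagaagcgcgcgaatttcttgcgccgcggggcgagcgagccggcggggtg
Mcm5: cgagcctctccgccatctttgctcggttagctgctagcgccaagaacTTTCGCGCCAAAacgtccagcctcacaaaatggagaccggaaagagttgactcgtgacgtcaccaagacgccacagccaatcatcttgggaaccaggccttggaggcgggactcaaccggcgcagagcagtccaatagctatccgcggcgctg
Mcm6: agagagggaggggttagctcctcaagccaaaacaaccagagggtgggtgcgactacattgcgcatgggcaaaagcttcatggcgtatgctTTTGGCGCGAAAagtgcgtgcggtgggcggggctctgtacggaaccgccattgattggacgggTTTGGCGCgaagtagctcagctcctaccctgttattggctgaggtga
Orc1: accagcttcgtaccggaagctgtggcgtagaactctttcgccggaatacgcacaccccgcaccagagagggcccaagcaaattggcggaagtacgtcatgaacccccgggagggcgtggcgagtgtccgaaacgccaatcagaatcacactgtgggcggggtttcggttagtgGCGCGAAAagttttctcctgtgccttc
Rrm1: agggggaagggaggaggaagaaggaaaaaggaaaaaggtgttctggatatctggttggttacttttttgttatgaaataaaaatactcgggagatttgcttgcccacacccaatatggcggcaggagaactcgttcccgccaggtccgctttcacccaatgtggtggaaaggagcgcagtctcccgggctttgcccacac

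Gene counts per library ran from 9284060 to 22763548. The second MEF library was the shallowest and had 47.2% of its reads outside genes, the second d6 Eff library had 24.2%, and the other 10 had 5.10% to 11.7%. The MEF pair also stood apart in its spread, with a correlation of log2 levels of 0.95, against 0.983 to 0.99 for the other pairs. The difference between replicates of a member had a median of 0.48 on the log2 scale in MEF and of 0.08 to 0.16 in the other groups. The 10 pluripotency markers summed to 9469 and 9964 counts per 1000000 (CPM) in iPSC and to 6.50 and 5.45 CPM in MEF, where 4 and 1 of them were at 0. The 10 fibroblast markers summed to 666 to 667 CPM in iPSC and to 57680 and 19340 CPM in MEF. Of 8 leukocyte markers the sum was 205 to 491 CPM in the 4 sorted populations and 7.48 and 11.2 CPM in MEF, nearly all from Laptm5, while Ptprc, the defining marker, lay between 0 and 0.131 CPM in them. The 6 endothelium markers summed to 78.2 to 160.2 CPM in the sorted populations, 55.1 to 58.2 CPM in iPSC and 2.09 to 3.72 CPM in MEF. Most of the sum came from Tek in the sorted populations and from Pecam1 in iPSC. The part of these differences in the results below was not tested.

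Transcripts of the replication list were more abundant in all 4 sorted populations and in iPSC than in MEF, least so in d6 Ineff. The 39 genes summed, in CPM after TMM scaling (trimmed mean of M-values), to 1815 and 1894 in MEF, 7024 and 6883 in d3 Eff, 5608 and 5496 in d3 Ineff, 6529 and 6402 in d6 Eff, 3980 and 3903 in d6 Ineff, and 8394 and 8368 in iPSC. The replicates of a group stayed close, and no 2 groups overlapped in this sum, in which abundant genes weigh most. The order of d3 Eff and d6 Eff differed between roles. The 3 nucleotide supply genes summed to 1801 and 1609 CPM in d3 Eff, against 1163 and 1024 CPM in d6 Eff. The 11 genes of the helicase and its loading, counted with Mcm10, summed to 2540 and 2472 CPM in d3 Eff. In d6 Eff they summed to 2630 and 2647 CPM. The median log2 fold change of the list in d6 Eff against d3 Eff was -0.02. In bulk libraries, fewer cells with a transcript and less of it per cell cannot be told apart. The mean level was highest in iPSC for 32 genes, in d3 Eff for 5, in d3 Ineff for 1 and in d6 Eff for 1. It was lowest in MEF for 36, in d6 Ineff for 2 (Orc6 and Prim2) and in iPSC for 1 (Ccne2).

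Calls were made with edgeR's quasi-likelihood test at a Benjamini-Hochberg adjusted p under 0.05 over all 16240 genes. In iPSC against MEF, 36 of the 39 genes were higher and 1 was lower, where 26% of all genes tested were higher and 26.7% lower. In d3 Eff against MEF, 35 were higher and 0 lower, with 18% of all genes higher and 18.6% lower. In d3 Ineff against MEF, 32 were higher and 0 lower, with 15% of all genes in each direction. In d6 Eff against MEF, 36 were higher and 0 lower, with 20.9% of all genes higher and 21.7% lower. In d6 Ineff against MEF, 23 were higher and 0 lower, with 15.6% of all genes higher and 15.2% lower. The median log2 fold change of the list was 2.16 in iPSC, 1.75 in d3 Eff, 1.33 in d3 Ineff, 1.80 in d6 Eff and 0.83 in d6 Ineff, each against MEF, while the median of all genes lay between 0.00 and 0.04. These 5 comparisons share the 2 MEF libraries. In all 5 of them 23 genes were higher, and in 4 of them Cdc6, Gins1, Gins2, Prim1, Rpa1, Tipin and Tyms. Ccne2 was higher in none. Leaving out 1 library at a time moved none of the 5 counts by more than 1.5 times, and the calls that held in every such refit numbered 32 of 37 in iPSC, 32 of 35 in d3 Eff, 25 of 32 in d3 Ineff, 32 of 36 in d6 Eff and 17 of 23 in d6 Ineff.

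**Figure D1:**
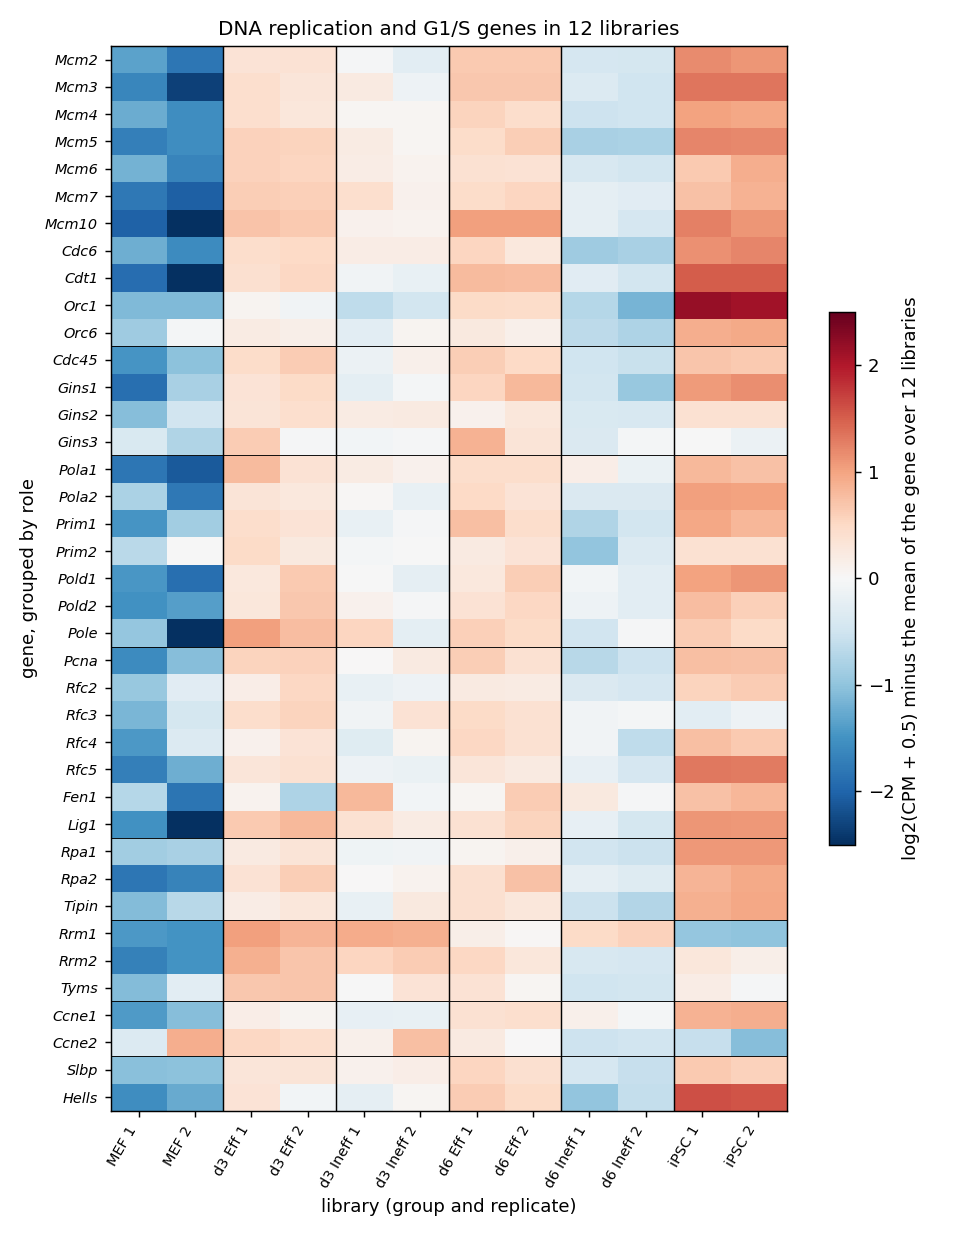
Colours give log2(CPM + 0.5) of each of the 39 genes (down the page, by role) in each of the 12 libraries (across, 2 per group) minus the gene's mean over the 12 libraries. The MEF columns are blue for nearly every gene, the iPSC columns are red for most, and Rrm1 and Ccne2 run against this in iPSC.

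Between the populations of 1 day, the list differed on day 6. In d6 Eff against d6 Ineff, 23 of the 39 genes were higher and 0 lower, where 5.38% of all genes tested were higher and 9.25% lower. The median log2 fold change was 0.82 for the list and 0.00 for all genes. Both d6 Eff libraries lay above both d6 Ineff libraries for 37 genes and below them for Rrm1. The share of all genes tested that were separated in this way was not counted. The number of calls depended on the libraries fitted. Without both MEF libraries 35 members were called, beside 4741 of all 16240 genes in either direction. When 1 library at a time was left out, the median of the list stayed between 0.798 and 0.903. Fewer members were called without any 1 of the day 6 libraries. The 9 genes called in every such refit were Cdc45, Cdc6, Hells, Mcm2, Mcm4, Mcm5, Orc1, Pcna and Slbp. The gates of these 2 populations differ in EpCAM and Sca1, and the 10 fibroblast markers summed to 1029 and 781 CPM in d6 Eff, against 5823 and 5611 CPM in d6 Ineff. The 8 leukocyte markers, nearly all Laptm5, summed to 205 and 205.5 CPM in d6 Eff, against 480 and 491 CPM in d6 Ineff. The 6 endothelium markers summed to 80.1 and 78.2 CPM in d6 Eff, against 153 and 156 CPM in d6 Ineff. The part of these marker differences in the result was not tested.

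The day 3 populations were split on CD73 and Sca1 and the day 6 populations on EpCAM and Sca1, so day and gate cannot be told apart in what follows. In d3 Eff against d3 Ineff, edgeR called 0 members higher and 0 lower, where 0.16% of all genes tested were higher and 0.24% lower. DESeq2 called 0 members, beside 445 of all 16240 genes. At an unadjusted p under 0.05, 13 members were higher, beside 8.11% of all genes in either direction. The log2 fold change was above 0 for 37 of the 39 genes, with a median of 0.42. Both d3 Eff libraries lay above both d3 Ineff libraries for 34, without a count over all genes to set beside it. In a fit without both MEF libraries edgeR called 3 members, beside 639 of all 16240 genes in either direction. The median of the list was 0.417 without the first MEF library and 0.382 without the second. The difference between the day 6 and day 3 contrasts, which also holds the change of gate, was tested directly. EdgeR called 0 members higher and 0 lower in it, where 0.296% of all genes were higher and 1.09% lower, and its lowest adjusted p was 0.0905, for Mcm5. At an unadjusted p under 0.05, 11 members were higher, beside 12.3% of all genes in either direction. DESeq2 called 5 (Mcm4, Mcm5, Cdc6, Slbp and Hells), beside 833 of all 16240 genes. All 5 had a larger Eff over Ineff ratio on day 6. Without both MEF libraries edgeR called 11 members in the difference, beside 1355 of all 16240 genes. The median difference over the list was 0.533 without the first MEF library and 0.543 without the second.

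**Figure D2:**
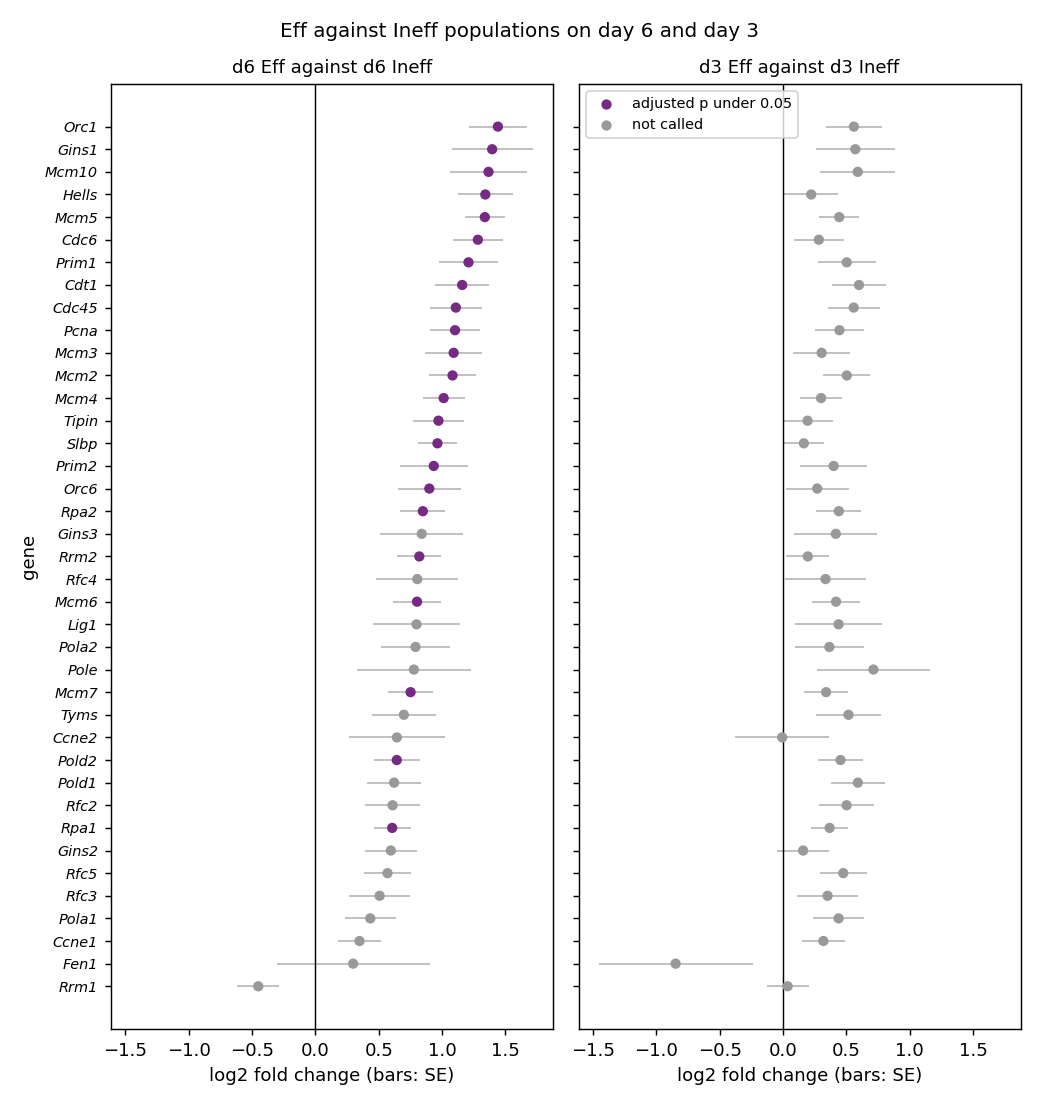
Points are log2 fold changes of Eff over Ineff for the 39 genes, on day 6 (left) and day 3 (right), with bars of 1 SE. Purple marks an adjusted p under 0.05, which 23 genes reached on day 6 and 0 on day 3; genes are sorted by the day 6 value, with Orc1 at the top at 1.44 and Rrm1 at the bottom at -0.45.

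Few members were called between the day 6 and day 3 populations of the same name, which differ in gate as well as in day. In d6 Eff against d3 Eff, 0 of the 39 genes were higher and 1, Rrm1, lower, where 4.24% of all genes tested were higher and 4.87% lower. In d6 Ineff against d3 Ineff, 0 were higher and 4 lower (Mcm5, Rrm2, Cdc6 and Slbp), where 3.19% of all genes were higher and 1.23% lower. The median log2 fold change of the list was -0.02 in the Eff and -0.48 in the Ineff comparison. Both d6 Ineff libraries lay below both d3 Ineff libraries for 31 members, a separation that was not counted over all genes. Without both MEF libraries, 21 members were called in d6 Ineff against d3 Ineff, beside 2651 of all 16240 genes in either direction. The calls were lost when any 1 of the 4 libraries compared was left out, with a median of -0.54 to -0.424. In iPSC against d6 Eff, 12 were higher and 1, Rrm1, lower, with 13.6% of all genes higher and 15.9% lower. This count depended on the libraries fitted, and without both MEF libraries it was 23, beside 6931 of all 16240 genes. It fell without any 1 library outside MEF, where the median of the list was 0.366 to 0.417. Hells, Orc1, Rfc5, Rpa1 and Rrm1 were called in every refit without 1 library.

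The 11 genes of the helicase and its loading, counted with Mcm10, included the genes with the largest differences. Mcm2 to Mcm7 encode the 6 subunits of the ring helicase that opens the double helix, and ORC1, ORC6, CDC6 and CDT1 place it on DNA. All 11 were higher in iPSC than in MEF, where 26% of all genes tested were higher. All 11 were also higher in d6 Eff than in d6 Ineff, where 5.38% of all genes were higher. The day 6 calls of Mcm3, Mcm6, Mcm7, Mcm10, Cdt1 and Orc6 were each lost in at least 1 refit without 1 library. Mcm5 had, in CPM, 77.1 and 85.6 in MEF, 375 and 373 in d3 Eff, 290.1 and 259.8 in d3 Ineff, 346 and 386 in d6 Eff, 144 and 146 in d6 Ineff and 591 and 579.7 in iPSC. The d6 Ineff pair lay apart from and below the other 3 sorted pairs, and no groups overlapped except d3 Eff with d6 Eff. Mcm5 had the smallest adjusted p of the list both in iPSC against MEF (log2 fold change 2.85 ± 0.17 SE, adjusted p = 2.36e-07, edgeR) and in d6 Eff against d6 Ineff (log2 fold change 1.34 ± 0.16 SE, adjusted p = 4.07e-04, edgeR). It was also lower in d6 Ineff than in d3 Ineff (log2 fold change -0.92, adjusted p = 0.00924 by edgeR, and 0.0657 to 0.0985 without any 1 of those 4 libraries).

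The other 5 subunits had the same order of groups at most points. Mcm2 had, in CPM, 88.8 and 63.7 in MEF, 283 and 289 in d3 Eff, 219 and 185 in d3 Ineff, 350.2 and 353 in d6 Eff, 168 and 164 in d6 Ineff and 511 and 478 in iPSC. For Mcm3 the values in CPM were 70.4 and 43.1 in MEF, 293 and 272 in d3 Eff, 256 and 201 in d3 Ineff, 351 and 349.6 in d6 Eff, 173 and 156 in d6 Ineff and 561 and 562 in iPSC. Mcm4 stood, in CPM, at 95.9 and 77.3 in MEF, 306 and 277 in d3 Eff, 237 and 237 in d3 Ineff, 338 and 312 in d6 Eff, 160.1 and 162 in d6 Ineff and 461 and 444 in iPSC. In all 3 genes both d6 Eff libraries lay above both d3 Eff libraries, and the d6 Ineff pair lay below every other pair but MEF. Mcm6 had, in CPM, 137 and 99.7 in MEF, 468 and 450.2 in d3 Eff, 356 and 332 in d3 Ineff, 406 and 401.5 in d6 Eff, 236 and 227 in d6 Ineff and 489.7 and 583 in iPSC. Mcm7 had, in CPM, 86.2 and 71.6 in MEF, 457 and 450.4 in d3 Eff, 399 and 318.5 in d3 Ineff, 406.5 and 432 in d6 Eff, 253 and 245 in d6 Ineff and 493 and 539 in iPSC. For Mcm6 the d3 Eff pair lay above the d6 Eff pair, and for Mcm7 it did so too, unlike the first 3. Against MEF, the log2 fold change of the 6 genes in iPSC ran from 2.18 (Mcm6) to 3.30 (Mcm3), and in d6 Eff against d6 Ineff from 0.75 (Mcm7) to 1.34 (Mcm5). Of these day 6 calls, those of Mcm2, Mcm4 and Mcm5 held in each refit without 1 library, that of Mcm3 was lost without either d6 Ineff library or the second d6 Eff library (adjusted p = 0.0531 to 0.0803, edgeR), and those of Mcm6 and Mcm7 without any 1 of the 4 day 6 libraries (0.0586 to 0.106).

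**Figure D3:**
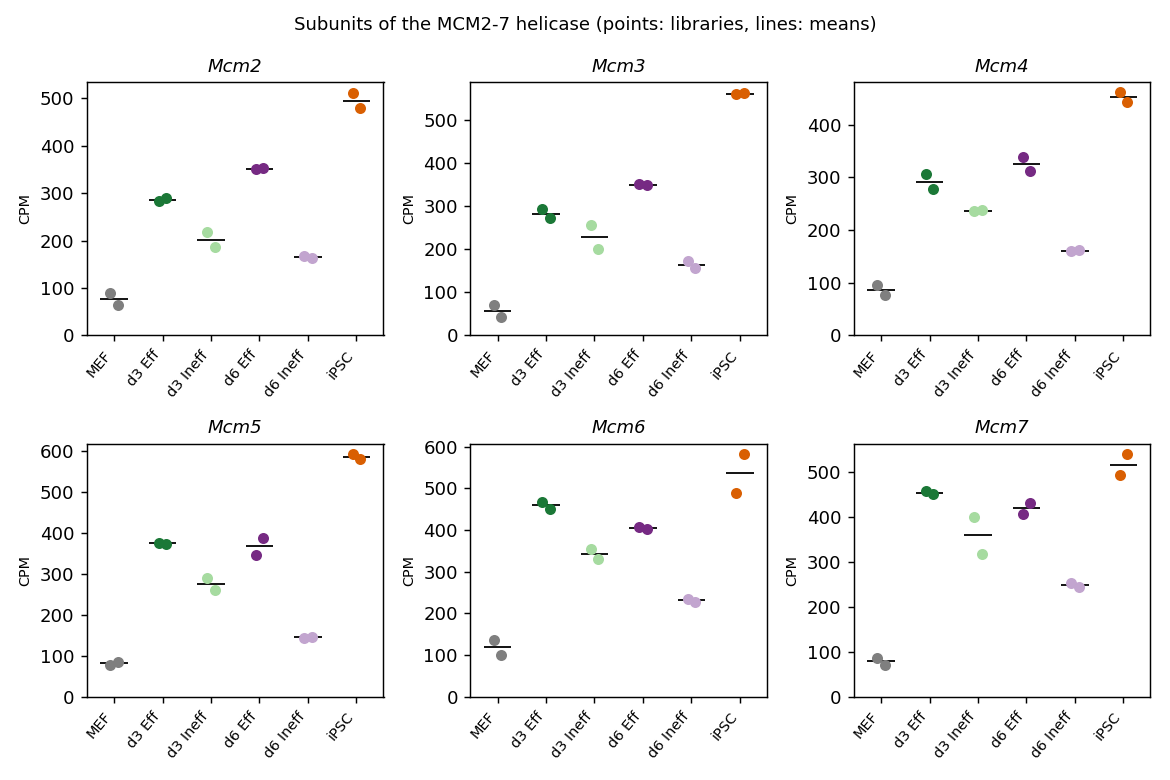
Each panel plots 1 subunit gene of the MCM2-7 helicase, with the level in CPM on a linear axis from 0 and the 6 groups in order of stage across. Points are the 2 libraries of a group and lines their mean; in all 6 panels the d6 Eff points lie above the d6 Ineff points and the MEF points lie lowest.

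The subunits form a complex with 1 copy of each, so their levels were also compared per length, as reads per 1000 bases of merged exons and 1000000 reads (RPKM). Between the highest and the lowest subunit in a library the ratio of RPKM was 1.87 to 2.87, and Mcm2 was the lowest in all 12 libraries. With the length of the longest coding transcript instead, the ratio was 1.38 to 2.07 and the lowest subunit varied between libraries, so the order rests on the length used. The sum of the 6 subunits was 716 and 734 RPKM in iPSC, 504 and 511 RPKM in d6 Eff, 258 and 251 RPKM in d6 Ineff, and 126 and 101 RPKM in MEF, per merged exon length.

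Cdt1, Mcm10 and Orc1 had the largest log2 fold changes in iPSC against MEF. Cdt1, whose protein brings the helicase to the origin and is destroyed in S phase, had, in CPM, 23.2 and 14.1 in MEF, 116 and 126 in d3 Eff, 82.7 and 77.2 in d3 Ineff, 153.5 and 151 in d6 Eff, 72.5 and 63.8 in d6 Ineff and 252 and 252 in iPSC. Mcm10, which helps the loaded helicase to start moving, had, in CPM, 14.9 and 5.86 in MEF, 101 and 96.9 in d3 Eff, 66.4 and 65.3 in d3 Ineff, 127 and 127 in d6 Eff, 52.6 and 45.9 in d6 Ineff and 149.5 and 133 in iPSC. Cdt1 was higher in iPSC than in MEF (log2 fold change 3.74 ± 0.24 SE, adjusted p = 3.75e-07) and in d6 Eff than in d6 Ineff (log2 fold change 1.16 ± 0.21 SE, adjusted p = 0.00453, edgeR), and the second call was lost without the second d6 Ineff library (adjusted p = 0.057). The 2 libraries of each group did not overlap with those of another in Cdt1. Mcm10 was higher in iPSC than in MEF (log2 fold change 3.71 ± 0.34 SE, adjusted p = 4.75e-06) and in d6 Eff than in d6 Ineff (log2 fold change 1.37 ± 0.30 SE, adjusted p = 0.0119, edgeR), the second call lost without any 1 of the 4 day 6 libraries (0.0586 to 0.106). The 2 MEF libraries of Mcm10 differed by over 2 times, with 14.9 and 5.86 CPM.

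Orc1 encodes the largest subunit of the origin recognition complex and had, in CPM, 6.97 and 6.98 in MEF, 16.4 and 14.7 in d3 Eff, 9.97 and 11.2 in d3 Ineff, 21.96 and 21.6 in d6 Eff, 9.39 and 6.70 in d6 Ineff and 72.9 and 68.7 in iPSC. The iPSC pair was more than 3 times as high as any other library, and the 2 d6 Eff libraries were the next highest. It was higher in iPSC than in MEF (log2 fold change 3.34 ± 0.25 SE, adjusted p = 1.05e-06), in iPSC than in d6 Eff (log2 fold change 1.70 ± 0.23 SE, adjusted p = 1.89e-04) and in d6 Eff than in d6 Ineff (log2 fold change 1.44 ± 0.23 SE, adjusted p = 0.00194, edgeR). It was not called in d3 Ineff or d6 Ineff against MEF (adjusted p = 0.0761 and 0.558). Cdc6, the ATPase that joins the origin complex to the helicase, had, in CPM, 14.2 and 10.9 in MEF, 45.9 and 47.5 in d3 Eff, 38.5 and 38.3 in d3 Ineff, 49.2 and 40.3 in d6 Eff, 17.9 and 18.9 in d6 Ineff and 74.6 and 79.2 in iPSC. The d6 Ineff pair lay below every library of the other sorted populations and just above MEF. Cdc6 was higher in d6 Eff than in d6 Ineff (log2 fold change 1.28 ± 0.20 SE, adjusted p = 0.00179) and lower in d6 Ineff than in d3 Ineff (log2 fold change -1.06 ± 0.20 SE, adjusted p = 0.014, edgeR), the call between days being lost with library totals in place of TMM (adjusted p = 0.0554) and without any 1 of its 4 libraries (0.107 to 0.144). Orc6, a small subunit of the same complex, had, in CPM, 36.0 and 64.8 in MEF, 77.4 and 74.9 in d3 Eff, 55.7 and 70.7 in d3 Ineff, 79.7 and 73.1 in d6 Eff, 42.6 and 39.3 in d6 Ineff and 127 and 131 in iPSC. It was called against MEF in iPSC only (log2 fold change 1.37 ± 0.25 SE, adjusted p = 9.02e-04, edgeR), and the second MEF library lay among the d3 Ineff values. Its call in d6 Eff against d6 Ineff (log2 fold change 0.90 ± 0.25 SE, adjusted p = 0.0344, edgeR) was lost in 7 of the 12 refits (0.0568 to 0.162). Orc1, Orc6 and Mcm7 are among 13 members that share part of their exons with genes read in the other direction. The others are Cdc45, Gins2, Pole, Rfc2, Rfc4, Rfc5, Fen1, Lig1, Ccne2 and Slbp, for Slbp with a gene absent from the count tables. Counted without strand, reads on the shared bases cannot be assigned to 1 gene and may have been left out.

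CDC45 and the GINS proteins join the helicase to make it active. Cdc45 had, in CPM, 15.4 and 21.2 in MEF, 60.05 and 67.8 in d3 Eff, 39.1 and 47.8 in d3 Ineff, 67.2 and 61.5 in d6 Eff, 30.4 and 29.3 in d6 Ineff and 70.4 and 69.0 in iPSC. It was higher in d6 Eff than in d6 Ineff (log2 fold change 1.11 ± 0.21 SE, adjusted p = 0.00478) and in iPSC than in MEF (log2 fold change 1.94 ± 0.21 SE, adjusted p = 2.07e-05, edgeR), while the d6 Eff and iPSC pairs lay close to each other. Among the 3 GINS genes on the list, Gins1 had, in CPM, 7.54 and 16.5 in MEF, 37.2 and 41.2 in d3 Eff, 24.5 and 28.2 in d3 Ineff, 42.6 and 51.9 in d6 Eff, 21.03 and 14.9 in d6 Ineff and 62.0 and 66.3 in iPSC. Gins2 had, in CPM, 25.9 and 38.95 in MEF, 68.5 and 73.2 in d3 Eff, 62.8 and 64.1 in d3 Ineff, 59.2 and 66.5 in d6 Eff, 41.8 and 41.3 in d6 Ineff and 71.3 and 71.3 in iPSC. In both the d6 Ineff pair lay below the other sorted populations, and the 2 MEF libraries lay further apart by ratio than those of the other pairs. Gins3 had, in CPM, 7.43 and 5.58 in MEF, 15.5 and 9.62 in d3 Eff, 9.31 and 9.55 in d3 Ineff, 18.2 and 12.3 in d6 Eff, 7.53 and 9.49 in d6 Ineff and 9.71 and 8.76 in iPSC. The MEF pair was lowest, several of the other groups overlapped, and the highest single library was in d6 Eff. In iPSC against MEF the log2 fold change was 2.45 for Gins1, 1.14 for Gins2 and 0.49 for Gins3, of which Gins3 was not called (adjusted p = 0.246, edgeR). In d6 Eff against d6 Ineff Gins1 was called (log2 fold change 1.40 ± 0.32 SE, adjusted p = 0.0139, and 0.119 without the second d6 Ineff and 0.0952 without the second d6 Eff library), while Gins2 and Gins3 were not (adjusted p = 0.078 and 0.117). Most exon bases of Gins2 are shared with Gse1, which is read from the other strand, so the same limit holds for it.

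The 7 polymerase and primase genes were all higher in iPSC than in MEF, although the call of Prim2 was lost in 9 of the 12 refits (adjusted p = 0.0474 with all libraries and 0.196 without the first MEF library, edgeR). POLA1 and POLA2 with the primase subunits PRIM1 and PRIM2 start each new strand, POLD1 and POLD2 belong to the polymerase of the lagging strand, and POLE to that of the leading strand. Pola1 had, in CPM, 21.5 and 17.6 in MEF, 133 and 98.1 in d3 Eff, 88.2 and 82.5 in d3 Ineff, 105 and 104 in d6 Eff, 86.3 and 68.5 in d6 Ineff and 135 and 128 in iPSC. All 5 other groups lay far above MEF, and among the sorted populations the d6 Ineff pair overlapped the d3 Ineff pair. It was among the 3 largest differences in d6 Ineff against MEF (log2 fold change 1.98 ± 0.21 SE, adjusted p = 4.22e-05, edgeR), and its difference in d6 Eff against d6 Ineff was not called (log2 fold change 0.43 ± 0.20 SE, adjusted p = 0.182). Of the 7 genes, Prim1, Prim2 and Pold2 were higher in d6 Eff than in d6 Ineff. Prim1 had 85.9 and 69.2 CPM in d6 Eff, against 30.1 and 37.0 CPM in d6 Ineff (log2 fold change 1.21 ± 0.23 SE, adjusted p = 0.00566, edgeR, and 0.0616 without the first d6 Ineff library). The day 6 call of Prim2 was lost in 9 of the 12 refits and that of Pold2 in 6. All 7 genes had both d6 Eff libraries above both d6 Ineff libraries, a separation that was not counted over all genes. Pole had the largest spread between the MEF libraries of all members, at 21.4 and 5.58 CPM, and its highest mean in d3 Eff, at 87.4 and 72.2 CPM.

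Pcna encodes the sliding clamp that holds the polymerases on DNA, and RFC2 to RFC5 are subunits of the loader that closes it. Pcna had, in CPM, 77.6 and 109.6 in MEF, 337.5 and 342 in d3 Eff, 231 and 268.5 in d3 Ineff, 353 and 299 in d6 Eff, 143 and 161 in d6 Ineff and 387 and 385 in iPSC. It was higher in d6 Eff than in d6 Ineff (log2 fold change 1.103 ± 0.20 SE, adjusted p = 0.00387) and in iPSC than in MEF (log2 fold change 2.05 ± 0.20 SE, adjusted p = 9.36e-06, edgeR), and the d3 Eff and d6 Eff pairs overlapped. Per length, it had the highest level of the list in iPSC, at 161 and 160.3 RPKM. The reference lists 2 pseudogenes named after Pcna, which could take a share of its reads. Rfc5 had, in CPM, 26.3 and 36.9 in MEF, 107 and 112 in d3 Eff, 79.9 and 77.8 in d3 Ineff, 107 and 101 in d6 Eff, 75.7 and 64.7 in d6 Ineff and 218.5 and 215 in iPSC. The iPSC pair was about 2 times as high as the d3 Eff and d6 Eff pairs, and it was higher in iPSC than in d6 Eff (log2 fold change 1.06 ± 0.19 SE, adjusted p = 0.00145, edgeR). Rfc3, of the same complex, had, in CPM, 22.9 and 37.7 in MEF, 70.5 and 75.5 in d3 Eff, 48.4 and 66.1 in d3 Ineff, 72.5 and 67.1 in d6 Eff, 48.2 and 49.98 in d6 Ineff and 42.8 and 47.2 in iPSC. Unlike in Rfc5, both iPSC libraries lay below both d6 Eff and both d3 Eff libraries, with no call in iPSC against d6 Eff (log2 fold change -0.63 ± 0.24 SE, adjusted p = 0.0724) or against MEF (log2 fold change 0.58 ± 0.25 SE, adjusted p = 0.0687, edgeR). The first of these was called without the first or the second MEF library (adjusted p = 0.00499 and 0.00758) and with library totals in place of TMM (0.0358). The second was called without the second MEF library (0.00143), with library totals (0.00637) and with the replicate block (0.0476). Rfc2 and Rfc4 were higher in iPSC than in MEF with log2 fold changes of 1.19 and 1.53.

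On the lagging strand, LIG1 seals the fragments after FEN1 has trimmed their ends. Lig1 had, in CPM, 46.4 and 16.3 in MEF, 209 and 233 in d3 Eff, 173 and 153 in d3 Ineff, 173.5 and 197 in d6 Eff, 115 and 97.4 in d6 Ineff and 286 and 283 in iPSC. The MEF libraries differed by over 2 times, and all the other libraries lay above both. It was among the 3 largest differences in d3 Eff against MEF (log2 fold change 2.79 ± 0.37 SE, adjusted p = 1.51e-04) and in d3 Ineff against MEF (log2 fold change 2.36 ± 0.36 SE, adjusted p = 5.85e-04, edgeR). Fen1 was counted at 0.419 to 5.27 CPM, and its call in iPSC against MEF (log2 fold change 2.27 ± 0.66 SE, adjusted p = 0.0132, edgeR) was lost without the second MEF library (0.0535). Most of its exon bases are shared with Gm10143, which is read from the other strand, so reads on those bases cannot be assigned to either gene. A counter may leave such reads out, and the level may be understated.

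RPA1 and RPA2 coat single-stranded DNA, and TIPIN protects stalled forks. Rpa1 had, in CPM, 112 and 116 in MEF, 238 and 255 in d3 Eff, 190.2 and 192 in d3 Ineff, 213 and 223 in d6 Eff, 146 and 140.5 in d6 Ineff and 436 and 434 in iPSC. The iPSC pair stood clear of all the others, and it was higher in iPSC than in d6 Eff (log2 fold change 0.99 ± 0.15 SE, adjusted p = 4.32e-04, edgeR). Rpa2 and Tipin were higher in iPSC than in MEF with log2 fold changes of 2.66 and 1.82, and all 3 were higher in d6 Eff than in d6 Ineff by 0.61 (Rpa1), 0.85 (Rpa2) and 0.97 (Tipin) on the log2 scale. These 3 day 6 calls were lost without the second d6 Ineff library (adjusted p = 0.111, 0.0761 and 0.0755 by edgeR), those of Rpa1 and Rpa2 also without the first d6 Ineff library (0.0868 and 0.0534) and the second d6 Eff library (0.102 and 0.088), and that of Rpa1 without the first d6 Eff library (0.0634) and with no low-count filter (0.0778).

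The ribonucleotide reductase genes departed from the order of groups seen in most of the list. RRM1 and RRM2 are the large and small subunits of ribonucleotide reductase, and TYMS makes thymidylate. Rrm1 had, in CPM, 187.5 and 178 in MEF, 1027 and 914 in d3 Eff, 960.1 and 933.5 in d3 Ineff, 558.5 and 513 in d6 Eff, 707 and 758 in d6 Ineff and 259.9 and 251 in iPSC. All 4 day 3 libraries were the highest, the d6 Ineff pair lay above the d6 Eff pair, and the iPSC pair lay nearest to MEF. Rrm1 was higher in d3 Eff than in MEF (log2 fold change 2.41 ± 0.17 SE, adjusted p = 2.60e-06) and lower in iPSC than in d6 Eff (log2 fold change -1.07 ± 0.17 SE, adjusted p = 6.14e-04, edgeR), the second in every refit without 1 library. It was lower in d6 Eff than in d3 Eff (log2 fold change -0.86 ± 0.17 SE, adjusted p = 0.00755, edgeR), a call lost without the first d3 Eff library (adjusted p = 0.0769) and without the first (0.0538) or the second d6 Eff library (0.117). It was the 1 member whose d6 Eff libraries both lay below both d6 Ineff libraries (log2 fold change -0.45 ± 0.17 SE, adjusted p = 0.0976), which was called without the first MEF library (adjusted p = 0.013) and without the second (0.00954), and by DESeq2 (5.98e-04). In iPSC against MEF it was higher (log2 fold change 0.48 ± 0.17 SE, adjusted p = 0.0301, edgeR), but not without the first (0.14) or the second iPSC library (0.104), nor with no low-count filter (0.0927).

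Rrm2 had, in CPM, 109 and 125.5 in MEF, 650.5 and 570 in d3 Eff, 515 and 551 in d3 Ineff, 506 and 430.4 in d6 Eff, 267 and 263 in d6 Ineff and 426 and 389.7 in iPSC. It too was highest on day 3, but its d6 Ineff pair was the lowest after MEF and its iPSC pair lay just below d6 Eff. Rrm2 was higher in d6 Eff than in d6 Ineff (log2 fold change 0.82 ± 0.17 SE, adjusted p = 0.00919) and lower in d6 Ineff than in d3 Ineff (log2 fold change -1.01 ± 0.17 SE, adjusted p = 0.00924, edgeR). The first call was lost without either d6 Ineff library or the first d6 Eff library (adjusted p = 0.0607 to 0.0657) and the second without any 1 of its 4 libraries (0.0605 to 0.101). Per length, the ratio of Rrm1 over Rrm2 in RPKM was 0.397 and 0.404 in d3 Eff, 0.278 and 0.300 in d6 Eff, 0.666 and 0.726 in d6 Ineff, 0.153 and 0.162 in iPSC and 0.432 and 0.358 in MEF. The 2 d6 Ineff libraries had the highest ratios of all 12 and the 2 iPSC libraries the lowest, and this order also holds with the longest coding transcript as length. Tyms, with 123 and 125 CPM in d3 Eff, also had its highest mean there. It was higher in iPSC than in MEF (log2 fold change 0.71 ± 0.26 SE, adjusted p = 0.0374, edgeR), a call lost without the first MEF library (0.152) or either iPSC library (0.169 and 0.07) or the second d3 Eff library (0.0548), and a pseudogene named after it may share its reads.

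The 2 cyclin E genes, whose proteins activate the kinase that starts S phase, were called in opposite directions in iPSC against MEF. Ccne1 had, in CPM, 48.0 and 61.4 in MEF, 145 and 134 in d3 Eff, 111.5 and 112 in d3 Ineff, 166 and 171 in d6 Eff, 140.5 and 124 in d6 Ineff and 234 and 239.8 in iPSC. Ccne2 had, in CPM, 14.7 and 35.5 in MEF, 26.8 and 25.3 in d3 Eff, 20.4 and 31.9 in d3 Ineff, 21.9 and 18.9 in d6 Eff, 12.9 and 13.2 in d6 Ineff and 12.3 and 8.70 in iPSC. For Ccne1 the MEF pair was lowest and the iPSC pair highest, with no overlap. For Ccne2 the MEF libraries differed by over 2 times and spanned most other groups, while the iPSC pair was the lowest. In iPSC against MEF, Ccne1 was higher (log2 fold change 2.12 ± 0.18 SE, adjusted p = 2.67e-06) and Ccne2 lower (log2 fold change -1.23 ± 0.39 SE, adjusted p = 0.0191, edgeR). The call of Ccne2 was lost without the second MEF library (adjusted p = 0.143), without the second iPSC library (0.125) and with library totals in place of TMM (0.0509), and part of its exons overlaps Ints8 on the opposite strand. The ratio of Ccne1 over Ccne2 in RPKM was 25.0 and 36.2 in iPSC and 4.28 and 2.27 in MEF, and in the sorted populations it lay between 4.62 in the second d3 Ineff library and 14.3 in the first d6 Ineff library. Neither gene was called in d6 Eff against d6 Ineff (adjusted p = 0.205 and 0.296, edgeR), though Ccne1 was without the first MEF library (0.0442). In both genes both d6 Eff libraries lay above both d6 Ineff libraries, a separation that was not counted over all genes.

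**Figure D4:**
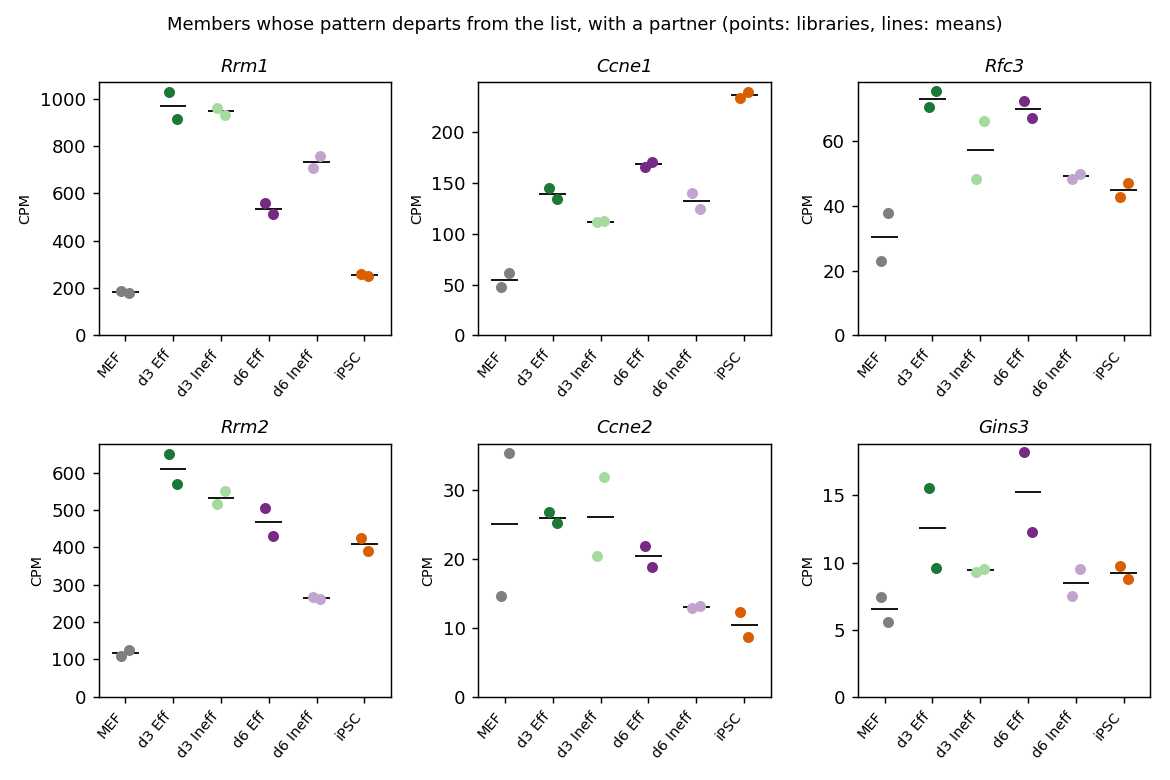
Each panel plots the level of 1 gene in CPM (linear axis from 0) in the 6 groups, with a point per library and a line at the mean of the 2. In the left column Rrm1 is highest on day 3 and low in iPSC while Rrm2 is lowest in MEF and d6 Ineff; in the middle Ccne1 is highest in iPSC and Ccne2 lowest there; on the right Rfc3 and Gins3 peak in sorted populations.

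Slbp, which binds the stem-loop of histone mRNA, and Hells, a chromatin remodeller of the SNF2 family that is linked to DNA methylation, complete the list. Slbp had, in CPM, 41.7 and 42.0 in MEF, 106 and 107.5 in d3 Eff, 93.7 and 96.8 in d3 Ineff, 125 and 114 in d6 Eff, 64.6 and 58.1 in d6 Ineff and 136 and 129.6 in iPSC. Hells had, in CPM, 39.8 and 49.0 in MEF, 149 and 112 in d3 Eff, 101 and 122 in d3 Ineff, 184 and 164 in d6 Eff, 59.2 and 78.1 in d6 Ineff and 362.5 and 349.5 in iPSC. In both the d6 Ineff pair lay below every library but those of MEF, and for Hells the iPSC pair was about 2 times d6 Eff. Slbp was higher in d6 Eff than in d6 Ineff (log2 fold change 0.96 ± 0.16 SE, adjusted p = 0.00225) and Hells likewise (log2 fold change 1.34 ± 0.21 SE, adjusted p = 0.00203, edgeR), both in every refit without 1 library. Hells was also higher in iPSC than in d6 Eff (log2 fold change 1.03 ± 0.21 SE, adjusted p = 0.0037, edgeR). Slbp was lower in d6 Ineff than in d3 Ineff (log2 fold change -0.63 ± 0.16 SE, adjusted p = 0.0451, edgeR), with adjusted p of 0.0681 to 0.283 without any 1 of the 10 libraries outside MEF, and of 0.0548 to 0.139 with the other 3 scalings.

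Genes around the list were counted by role, from lists drawn up with earlier results of these data known. Their counts in d6 Eff against d6 Ineff depended on single libraries, and parentheses give the lowest and highest over the 12 refits. The fewest higher genes were called without 1 of the 4 day 6 libraries. The most were called without 1 of the MEF libraries, where more of all genes were called too. With all 12 libraries, 26% of all genes tested were higher and 26.7% lower in iPSC than in MEF. In d6 Eff against d6 Ineff, 5.38% were higher and 9.25% lower. Of 36 other replication genes tested, 29 were higher and 2 lower in iPSC than in MEF, and 16 were higher (6 to 27) and 1 lower (0 to 1) in d6 Eff than in d6 Ineff. Among them Gmnn, whose protein geminin blocks CDT1, had 165 and 158 CPM in d6 Eff, against 64.4 and 50.6 CPM in d6 Ineff (log2 fold change 1.49 ± 0.19 SE, adjusted p = 5.96e-04, edgeR). Dna2, a nuclease of the lagging strand, had 36.3 and 34.8 CPM in d6 Eff, against 12.7 and 11.8 CPM in d6 Ineff (log2 fold change 1.54 ± 0.20 SE, adjusted p = 5.74e-04, edgeR). Both were called in all 12 refits and were also higher in iPSC than in MEF, by 3.10 (Gmnn) and 3.74 (Dna2) on the log2 scale. The lower genes in iPSC were the small polymerase subunit genes Pold4 (log2 fold change -3.23) and Pole3 (-0.44, called in 2 of the 12 refits), and Pold4 was also the lower one in d6 Eff (-1.40, called in 3 of the 12 refits). Of 13 genes of nucleotide supply, 8 were higher and 0 lower in iPSC than in MEF, and 5 higher (0 to 10) and 0 lower in d6 Eff than in d6 Ineff. Gart, of purine synthesis, was higher in d6 Eff than in d6 Ineff by 0.97 (called in 11 of the 12 refits) and in iPSC than in MEF by 2.52 on the log2 scale. Of 13 E2F and pocket protein genes, 7 were higher and 1 lower in iPSC than in MEF, and 3 higher (0 to 5) and 0 lower (0 to 2) in d6 Eff than in d6 Ineff. E2f1, the activating factor, had 107 and 131 CPM in iPSC, against 32.3 and 23.9 CPM in MEF (log2 fold change 2.07 ± 0.23 SE, adjusted p = 1.99e-05), and 57.8 and 76.2 CPM in d6 Eff, against 49.1 and 41.9 CPM in d6 Ineff, where it was not called (adjusted p = 0.117, edgeR). Rbl2, a pocket protein gene, was the 1 lower in iPSC (log2 fold change -2.33 ± 0.40 SE, adjusted p = 5.07e-04, edgeR). Tfdp1, the gene of a partner of E2F factors, and Rbl1, another pocket protein gene, were higher in d6 Eff than in d6 Ineff by 0.75 (Tfdp1) and 0.79 (Rbl1) on the log2 scale, and were called in 9 (Tfdp1) and 8 (Rbl1) of the 12 refits. E2f2, of another activating factor, was higher in iPSC than in MEF by 2.93 on the log2 scale.

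The G1 cyclins, kinases and inhibitors included genes called in both directions. Of 16 tested, 7 were higher and 7 lower in iPSC than in MEF, 5 higher (0 to 6) and 7 lower (5 to 8) in d6 Eff than in d6 Ineff, and 0 higher and 3 lower in d3 Eff than in d3 Ineff. Among all genes tested, 0.16% were higher and 0.24% lower in d3 Eff than in d3 Ineff, and the shares of the other 2 comparisons are given above. The 3 lower calls of day 3 depended on the libraries fitted. Their number fell without any 1 library outside MEF. It rose without either MEF library, as did the number of all genes called. Cdkn1c, the gene of the kinase inhibitor p57, had 23.1 and 18.4 CPM in d6 Eff, against 267 and 271 CPM in d6 Ineff (log2 fold change -3.69 ± 0.22 SE, adjusted p = 1.90e-05, edgeR). On day 3 it had 30.5 and 39.3 CPM in d3 Eff, against 138 and 147 CPM in d3 Ineff (log2 fold change -2.03 ± 0.20 SE, adjusted p = 0.00282, edgeR), a call lost in 1 of the 12 refits. Ccnd2, the gene of cyclin D2, had 27.2 and 27.0 CPM in iPSC, against 929.6 and 780.4 CPM in MEF (log2 fold change -4.98 ± 0.23 SE, adjusted p = 6.07e-08) and 1079 and 860 CPM in d6 Eff, against 2965 and 2982 CPM in d6 Ineff (log2 fold change -1.62 ± 0.20 SE, adjusted p = 4.86e-04, edgeR). Cdk2, the kinase partner of cyclin E, was higher in d6 Eff than in d6 Ineff (log2 fold change 0.75 ± 0.18 SE, adjusted p = 0.0167, edgeR), and so was Skp2, whose protein marks kinase inhibitors for destruction (log2 fold change 0.85 ± 0.20 SE, adjusted p = 0.0167, edgeR). These were called in 8 (Cdk2) and 10 (Skp2) of the 12 refits. Cdc25a, the gene of a phosphatase that activates the kinases, and Ccna2, of cyclin A2, were higher in iPSC than in MEF by 2.09 (Cdc25a) and 1.53 (Ccna2) on the log2 scale. Cdkn1a, the gene of p21, had 65.3 and 68.4 CPM in iPSC, against 499 and 495 CPM in MEF (log2 fold change -2.89 ± 0.17 SE, adjusted p = 2.12e-07, edgeR).

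The mitosis and G2/M genes, another list of cell cycle genes, were also higher in most comparisons with MEF and in d6 Eff. Of 30 tested, 27 were higher and 0 lower in iPSC than in MEF, 26 in d3 Eff, 24 in d3 Ineff, 27 in d6 Eff and 15 in d6 Ineff than in MEF, each with 0 lower. The shares of all genes called are those given above beside the replication list. In d6 Eff against d6 Ineff 13 were higher and 0 lower. The count fell without any 1 library outside MEF, and most without 1 of the 4 day 6 libraries. It rose without either MEF library, as did the number of all genes called. With all libraries the list had a median log2 fold change of 0.77 (0.82 in the replication list). In d6 Ineff against d3 Ineff 0 were higher and 4 lower, with a median of -0.53 (-0.48 in the replication list). Whether the 2 lists differ in these was not tested. Ccnb1, the gene of cyclin B1, had 199 and 168 CPM in d6 Eff, against 86.9 and 88.2 CPM in d6 Ineff (log2 fold change 1.06 ± 0.17 SE, adjusted p = 0.00201, edgeR, called in all 12 refits). In iPSC against MEF it was higher by 2.61 on the log2 scale. Ccnf, the gene of cyclin F, was higher in d6 Eff than in d6 Ineff by 1.07 and in iPSC than in MEF by 3.42 on the log2 scale.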

How the data were processed

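Poly-A RNA-seq libraries of 6 groups (2 each) were deposited by the authors as whole-number read counts per Ensembl gene. The submitters' processing notes name STAR 2.3.0, Picard 1.100, HTSeq 0.6.0 and build mm9. The sources used here give neither their roles and settings nor the gene annotation. The deposited files are named as counted without strand, although the library kit is directional per the labels' protocols. The 5 summary lines of each file were left out of totals and tests, and reads outside genes are given in the report as a share of gene, unassigned and ambiguous reads.

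Symbols were matched to 32860 of 37583 identifiers (87.4%) through GENCODE M21, used for names, lengths and exon overlaps only. Counts were filtered with filterByExpr, scaled by TMM and fitted with edgeR 4.0.16 (limma 3.58.1, R 4.3.3) by robust quasi-likelihood, 1 mean per group over all 12 libraries, with 6 residual and 5.04 prior degrees of freedom. The biological coefficient of variation was 28%. Adjusted p-values are Benjamini-Hochberg values over all genes tested, fold changes use a prior count of 0.125, and SE is the log2 fold change over the square root of F. A total of 11 comparisons were made. CPM are TMM-scaled, and RPKM use merged exon lengths.

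Values in every library are given for the called members with the largest or surest differences, members called in no comparison with MEF, members lower in iPSC, and small complexes as sets. From each other list the text names the 2 called genes per direction with the smallest adjusted p in iPSC against MEF and in d6 Eff against d6 Ineff, of which 1 gene is not reported here, and E2f1 on day 6. The members and lists were chosen with earlier results of these data known. Alternatives were other scalings, no filter, DESeq2 1.42.0, a replicate block, leaving out each library, and, chosen after seeing that the MEF replicates differed most, a fit without MEF.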

Additional observations from a re-analysis of the deposited data

How the results depend on the processing

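No log2 fold change of a member that was called changed sign under any alternative, out of 429 gene and comparison values per setting (234 in the fit without MEF). The counts against MEF stayed within 1.5 times of those reported, and leaving out 1 library at a time gave 33 to 36 in d3 Eff, 27 to 34 in d3 Ineff, 32 to 36 in d6 Eff, 17 to 28 in d6 Ineff and 33 to 37 in iPSC. The same refits gave 0 to 3 members in d3 Eff against d3 Ineff, 11 to 36 in d6 Eff against d6 Ineff, 0 to 2 in d6 Eff against d3 Eff, 0 to 21 in d6 Ineff against d3 Ineff, 5 to 23 in iPSC against d6 Eff and 0 to 10 in the difference between the day 6 and day 3 contrasts. The fit without both MEF libraries, added after seeing the data, gave 3, 35, 2, 21, 23 and 11 members in the same order. In d6 Ineff against d3 Ineff, library totals gave 2 and DESeq2 12. In the difference, DESeq2 gave 5 and no low-count filter 1. The cause was not tested. Library totals moved the median of all genes by 0.22 to 0.34 (log2) in the comparisons with MEF.

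With the replicate block, 5 calls were lost and 3 gained, and the counts were 23 in d6 Eff against d6 Ineff and 3 in d6 Ineff against d3 Ineff. Deviations of same-numbered libraries correlated at -0.147 to 0.351 over 15 pairs of groups, 6 of them over 0.1. The labels do not say whether the numbers pair the samples, and these correlations cannot settle it. With 2 libraries a group, calls rest on a spread shared over all 6 groups, and the MEF pair differed most, and differences of members with low counts were least certain.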
